A study of Mus musculus with 2 samples.

Results

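Accessible chromatin close to microRNA (miRNA) genes was described in whole mouse embryos of 11 days, strain B6NCrl, measured by DNase-seq. In this assay DNase I cuts DNA that nucleosomes leave uncovered, and the positions of the cuts are sequenced. The samples form 1 group of 2 biological replicates, each pooled from male and female embryos, with separate biosample entries and the same donor entry in the labels. There was no other genotype, treatment, stage or tissue. The peaks described were those of replicate 1 that shared 1 bp or more with a replicate 2 peak, lay on chromosomes 1 to 19 and had their midpoint within 5 kb of a GENCODE M21 gene of type miRNA. They also lay outside every protein-coding gene and more than 1 kb from every protein-coding transcription start site (TSS). The rule gave 731 peaks near 377 miRNA genes, of 66175 intergenic peaks found in both replicates and 162667 peaks of any position found in both. The other 65444 intergenic peaks, which meet the same rule apart from the distance to a miRNA gene, are the set they are compared with. Replicate 1 had 204697 peaks and replicate 2 had 231103, and how deeply each library was sequenced is unknown, because the files hold no reads.

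A miRNA is cut in steps by Drosha and Dicer from a hairpin in a longer primary transcript. It guides Argonaute proteins to messenger RNAs that pair with its seed, bases 2 to 8 from the 5′ end, and lowers the output of those messages. The promoter of an intergenic miRNA can lie far upstream of the hairpin, often at the start of a long noncoding RNA (lncRNA) that carries the hairpin. Several miRNAs of the embryo are known for their tissue, such as miR-9 and miR-124 in the nervous system, miR-1 and miR-206 in muscle, and miR-144 and miR-451 in red blood cells.

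The sequences of 8 peaks are printed because each is the best-scoring intergenic peak of a group of miRNAs that the results follow. They were read from the GRCm38 (mm10) plus strand, 5′ to 3′. Capitals mark matches to searched motifs, namely GGGCGG (SP factors), ACAANG (SOX factors), CACGTG (MYC) and GCCNNNGGC (TFAP2), on either strand. The peaks lie near Mir10a of the HoxB cluster (chr11:96312216-96312365), Mir9-3 of the nervous system (chr7:79504816-79504965), Mir182 of sensory organs (chr6:30167316-30167465) and Mir1a-1 of muscle (chr2:180386036-180386185). The others lie near Mirlet7i (chr10:122986376-122986525), the Mir17 cluster (chr14:115040756-115040905), Mir142b of blood cells (chr11:87755456-87755605) and Mir148a (chr6:51270976-51271125).
Mir10a peak: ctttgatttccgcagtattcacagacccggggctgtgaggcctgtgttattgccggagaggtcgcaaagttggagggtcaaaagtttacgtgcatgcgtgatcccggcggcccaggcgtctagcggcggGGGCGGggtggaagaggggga
Mir9-3 peak: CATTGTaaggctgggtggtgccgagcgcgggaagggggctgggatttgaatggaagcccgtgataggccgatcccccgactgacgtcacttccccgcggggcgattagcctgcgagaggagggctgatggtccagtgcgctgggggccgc
Mir182 peak: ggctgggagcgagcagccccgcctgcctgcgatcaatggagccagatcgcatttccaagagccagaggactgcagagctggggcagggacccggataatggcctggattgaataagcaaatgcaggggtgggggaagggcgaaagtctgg
Mir1a-1 peak: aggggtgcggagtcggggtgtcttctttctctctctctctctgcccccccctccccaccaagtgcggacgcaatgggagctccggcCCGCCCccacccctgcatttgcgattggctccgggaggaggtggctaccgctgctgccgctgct
Mirlet7i peak: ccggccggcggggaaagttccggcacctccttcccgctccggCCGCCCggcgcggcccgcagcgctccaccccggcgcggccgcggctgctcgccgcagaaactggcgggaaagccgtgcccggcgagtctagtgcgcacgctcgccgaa
Mir17 peak: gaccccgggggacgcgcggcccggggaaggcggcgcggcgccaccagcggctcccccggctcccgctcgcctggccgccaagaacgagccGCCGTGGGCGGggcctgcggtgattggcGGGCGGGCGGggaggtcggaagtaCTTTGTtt
Mir142b peak: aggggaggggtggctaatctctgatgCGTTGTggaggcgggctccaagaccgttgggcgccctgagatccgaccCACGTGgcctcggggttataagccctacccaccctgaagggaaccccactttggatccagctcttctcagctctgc
Mir148a peak: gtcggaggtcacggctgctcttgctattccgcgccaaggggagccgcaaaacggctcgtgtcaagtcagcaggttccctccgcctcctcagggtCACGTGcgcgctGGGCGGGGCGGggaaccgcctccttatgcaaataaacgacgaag

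The mature miRNAs below come from loci that the results describe and include miRNAs of separate hairpins with 1 seed, from RefSeq on GRCm38.p6, with the seed in capitals. Of the 90 listed miRNA genes with one of the peaks within 5 kb, 85 were matched to a mature sequence. They show which separate hairpins, some of them neighbours at 1 locus, make miRNAs with the same seed. The seed GAGGUAG was shared by Mirlet7b, Mirlet7c-2, Mirlet7e and Mirlet7i, the seed CCCUGAG by Mir125a, Mir125b-1 and Mir125b-2, and the seed CUUUGGU by Mir9-1, Mir9-2 and Mir9-3. The seed GGAAGAC was shared by Mir7-1, Mir7-2 and Mir7b, AACAGUC by Mir132 and Mir212, AAAGUGC by Mir17 and Mir20a, and GUGCAAA by Mir19a and Mir19b-1.
miR-9-5p: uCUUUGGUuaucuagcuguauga
let-7i-5p: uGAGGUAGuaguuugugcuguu
let-7b-5p: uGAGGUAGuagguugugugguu
miR-125b-5p: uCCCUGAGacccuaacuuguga
miR-132-3p: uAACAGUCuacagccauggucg
miR-212-3p: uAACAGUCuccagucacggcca
miR-17-5p: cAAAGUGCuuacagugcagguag
miR-19a-3p: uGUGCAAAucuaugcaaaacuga
miR-196a-5p: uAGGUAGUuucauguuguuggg
miR-183-5p: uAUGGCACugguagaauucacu
miR-206-3p: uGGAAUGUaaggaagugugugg
miR-144-3p: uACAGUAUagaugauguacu
miR-210-3p: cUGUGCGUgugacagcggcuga
miR-675-5p: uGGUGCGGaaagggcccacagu

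The label miRNA covers annotations of unequal standing. Of the 2054 GENCODE miRNA genes on these chromosomes, 1096 overlapped a RefSeq miRNA gene on the same strand, and 324 of the 829 that lie outside protein-coding genes did. The nearest miRNA gene had a RefSeq entry for 391 of the 731 peaks (53.5%, 95% Wilson interval 49.9 to 57.1). For the other 340 peaks, near 191 genes, it had none. Results are given for both kinds, as peaks near RefSeq miRNA genes and peaks near other GENCODE miRNA genes. This split was chosen after the values were seen. No test was run on any of these differences, because peaks of 1 group are not replicates of a condition. Wilson intervals of shares and exact Poisson intervals of densities treat peaks as independent and cover counting error only.

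Of the 829 miRNA genes outside protein-coding genes, 337 (40.7%) had an intergenic peak of this set within 5 kb. A peak of any position found in both replicates lay within 5 kb of 1071 of all 2054 miRNA genes (52.1%). Outside protein-coding genes the share was 53.7% of 324 RefSeq miRNA genes (174 genes, 48.3 to 59.1) and 32.3% of 505 other GENCODE miRNA genes (163 genes, 28.3 to 36.5). Hairpins within 10 kb of each other on 1 strand were joined into a cluster, which gave 360 clusters with a peak. Of these, 191 had 1 peak, 88 had 2 peaks and 81 had 3 or more, up to 12. Among the 731 peaks, 26 shared a replicate 2 peak with another of them, so counts of peaks can hold 1 site more than once. As a description, since the rule requires both replicates, 731 of 891 replicate 1 peaks near miRNA genes had a partner in replicate 2 (82.0%, 79.4 to 84.4), against 78.0% of all replicate 1 intergenic peaks and 79.5% of its peaks of any position. In replicate 2 it was 723 of 1011 (71.5%, 68.7 to 74.2), against 68.1% of its intergenic peaks and 70.3% of its peaks of any position.

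Intergenic peaks lay closer together around RefSeq miRNA hairpins than in the rest of intergenic space. Per 100 kb of sequence open to the rule, there were 15.0 peaks within 5 kb of a RefSeq miRNA gene (398 peaks in 2.66 Mb, 13.5 to 16.5) and 6.83 within 5 kb of another GENCODE miRNA gene only (333 peaks in 4.88 Mb, 6.11 to 7.60). The density was 4.74 in the 1381 Mb farther than 5 kb from every miRNA gene (4.70 to 4.78). For scale, the density within 5 kb of a tRNA gene was 38.7, within 5 kb of a snRNA gene 5.97 and within 5 kb of a snoRNA gene 5.47. Distance to coding promoters and to tRNA genes differed between these spaces, so the densities were also taken without them. Farther than 5 kb from every protein-coding TSS they were 14.4 near RefSeq miRNA genes, 5.60 near other GENCODE miRNA genes and 4.54 elsewhere. Farther than 5 kb from every tRNA gene they were 14.8 near RefSeq miRNA genes, 6.41 near other GENCODE miRNA genes and 4.70 elsewhere.

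Around RefSeq miRNA genes the density was highest in the hairpin itself, which holds few peaks, and just upstream of it. It was 27.2 peaks per 100 kb with the midpoint inside a hairpin (7 peaks), and 25.3 over the first 1000 bp upstream (63 peaks) and 14.7 from there to 5000 bp upstream. Downstream it was 16.5 over the first 1000 bp (42 peaks) and 12 beyond. Around the other GENCODE miRNA genes the density was also highest in the hairpin, at 12 (6 peaks), and the other windows held 8.76 and 6.42 upstream, and 6.64 and 6.88 downstream. Of the 391 peaks near RefSeq miRNA genes, 219 lay upstream (56.0%, 51.1 to 60.8), 165 downstream (42.2%) and 7 had their midpoint inside the hairpin. Near other GENCODE miRNA genes the sides were even, with 168 of 340 upstream (49.4%, 44.1 to 54.7) and 166 downstream.

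**Figure D1:**
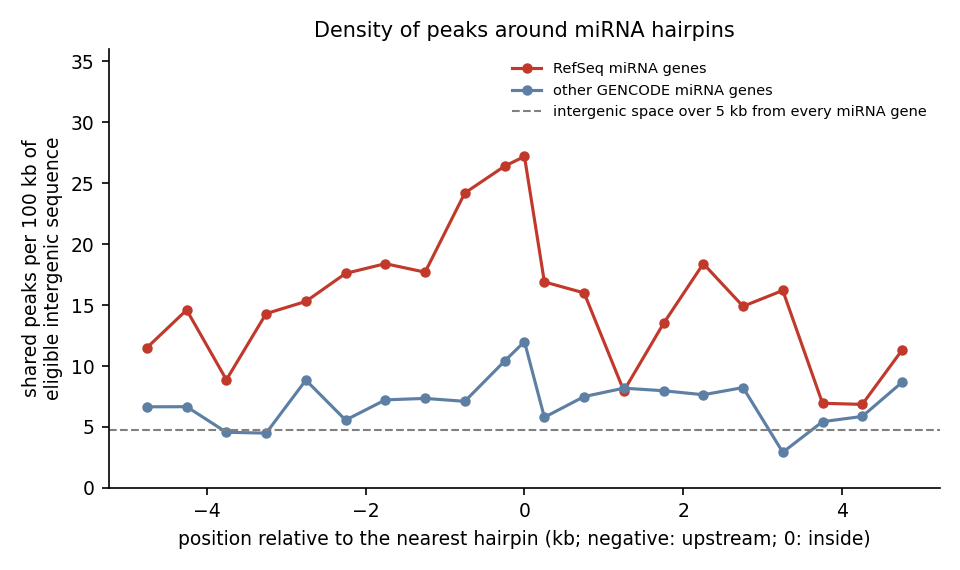
Intergenic peaks found in both replicates per 100 kb of sequence that the rule allows (vertical axis), by position relative to the nearest miRNA hairpin in kb (horizontal axis; negative values are upstream on the strand of the miRNA, 0 is the hairpin itself), in bins of 500 bp. The line for RefSeq miRNA genes stands above that for other GENCODE miRNA genes in the upstream bins, and the dashed line marks the 4.74 peaks per 100 kb farther than 5 kb from every miRNA gene.

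The deposited score of a peak, a whole number from 1 to 150, ranked these peaks above other intergenic peaks in both replicates. The median score was 56 in replicate 1 (quartiles 40 and 80) and 66 in replicate 2 (quartiles 47 and 89), against 46 (34 and 65) and 55 (41 and 75) for other intergenic peaks. As percentiles among all peaks of the same replicate, the medians were 64.5 and 68.1 near miRNA genes, against 52.1 and 56.8 for other intergenic peaks. The best-scoring 10% of both lists held 75 of the 731 peaks (10.3%, 8.26 to 12.7), against 2900 of 65444 other intergenic peaks (4.43%, 4.28 to 4.59). The ranges overlapped almost fully, from 6 to 144 near miRNA genes and from 2 to 149 elsewhere in replicate 1. In a whole embryo, fewer cells with an open site and less cutting per cell cannot be told apart in a score.

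The higher scores were mainly those near RefSeq miRNA genes. Their medians were 61 and 72 in replicates 1 and 2, those near other GENCODE miRNA genes 50 and 60, and those of other intergenic peaks 46 and 55. The best-scoring 10% of both lists held 14.6% of the peaks near RefSeq miRNA genes (57 peaks), 5.29% of those near other GENCODE miRNA genes (18 peaks) and 4.43% of other intergenic peaks. Among other intergenic peaks, those near coding promoters scored higher, so the scores were also split by distance to the nearest protein-coding TSS. Farther than 5 kb from it, the median replicate 1 score was 56.5 near miRNA genes (548 peaks), against 45 for other intergenic peaks. Within 5 kb of it, the median was 55 in both sets. The rank correlation of both replicates' scores was 0.946 over the 731 peaks, against 0.918 over other intergenic peaks, as a description across peaks that share 2 libraries.

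**Figure D2:**
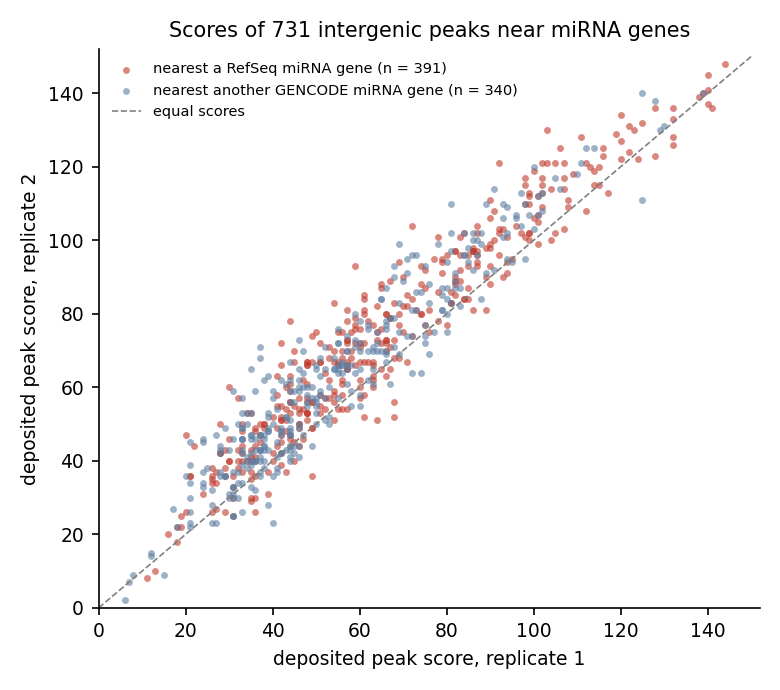
Deposited score of each of the 731 peaks in replicate 1 (horizontal axis) and of the replicate 2 peak it overlaps (vertical axis), both without unit, coloured by whether the nearest miRNA gene has a RefSeq entry (391 peaks) or not (340 peaks). The dashed line marks equal scores, and the median was 56 in replicate 1 and 66 in replicate 2. The points above 120 in both replicates are mostly peaks near RefSeq miRNA genes.

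The best-scoring peak lay 398 bp upstream of Mir210, whose miRNA is known to be induced by low oxygen. It scored 144 in replicate 1 and 148 in replicate 2. The next, 140 and 145, lay 3097 bp downstream of Mir26b, beyond the end of the host gene Ctdsp1, which encodes a phosphatase of RNA polymerase II. Near Mir3089 a pair of peaks scored 140 and 141, and 138 and 139. The peak 373 bp upstream of Mir9-3, printed above, scored 139 and 140, and a peak near the Gm symbol Gm22118 had the same scores. The peak near Mir6935 (140 and 137) lay 1749 bp from the TSS of Actg1, the gene of cytoplasmic gamma-actin. The peak near Mir6516 (141 and 136) lay 32 bp from the start of the snoRNA host Snhg20. The list of the best 10 closed with Mir17 (132 and 136) and Gm24158 (128 and 138). Of these 10 peaks, 8 lay nearest a RefSeq miRNA gene, and their GC content ran between 60.7% and 83.3%.

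Transcripts that carry miRNA hairpins are often lncRNAs. A minority of these peaks lay in or at lncRNA genes, though a larger share than of other intergenic peaks. Inside lncRNA genes the share was larger only for the peaks near RefSeq miRNA genes. The midpoint was inside an annotated lncRNA for 176 of the 731 peaks (24.1%, 21.1 to 27.3), against 14.5% of other intergenic peaks (14.3 to 14.8). It was 33.5% near RefSeq miRNA genes (29.0 to 38.3) and 13.2% near other GENCODE miRNA genes (10 to 17.3). A lncRNA TSS lay within 500 bp of 72 peaks (9.85%, 7.89 to 12.2), against 2.95% of other intergenic peaks. Those 72 peaks had median scores of 70 and 81.5, against 60 and 71 for other intergenic peaks within 500 bp of a lncRNA TSS.

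For 44 peaks (6.02%) that TSS belonged to a host lncRNA, which contains a miRNA hairpin on its own strand. Their median scores were 77.5 and 85 in replicates 1 and 2, against 55 and 65 for the remaining 687 peaks. Their median GC content was 58.3%, against 52.7%. The sites included H19, the imprinted lncRNA that carries Mir675, where the peak 88 bp from the TSS scored 105 and 102. At Meg3, a maternally expressed lncRNA, a peak 90 bp from the TSS scored 94 in both replicates. At Mir17hg, the host of the Mir17 cluster, the peak 12 bp from the annotated TSS scored 57 and 54, below the cluster's peaks farther upstream. At 3110039I08Rik, the host of Mir125b-1, peaks lay 78, 90 and 2 bp from an annotated TSS. They scored 114, 107 and 82 in replicate 1 and 119, 117 and 97 in replicate 2.

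Listed groups of miRNA genes were read against the 53.7% of RefSeq miRNA genes outside protein-coding genes that had a peak, since all 189 listed genes found have a RefSeq entry. That share includes the listed genes themselves, and the share among unlisted genes was not taken. Neural miRNAs stood at 16 of 18, the miR-17/92 group at 6 of 6, all in 1 cluster, epithelial and endodermal miRNAs at 10 of 14, and vascular and mesenchymal miRNAs at 10 of 14. Both Hox cluster miRNAs, the 3 sensory organ miRNAs and 3 of 4 muscle miRNAs had a peak, as had the 1 pluripotency miRNA that lies outside protein-coding genes. The counts were 5 of 10 for let-7 with miR-99, miR-100 and miR-125, 4 of 9 for erythroid and blood miRNAs (44.4%) and 13 of 30 for imprinted miRNAs (43.3%). These counts include hairpins of 1 cluster that share peaks, so they are not independent. The lists were also chosen with earlier results of these data known, so the counts are a description only. As a check of the labelled tissue, 12 of 12 marker genes of neural, muscle, heart, limb, blood, liver, cartilage and skin cells had a promoter peak in both replicates, against 70.9% of all protein-coding genes on these chromosomes. A promoter peak does not by itself show a cell type, and vascular and sensory organ cells had no marker among the 12.

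**Figure D3:**
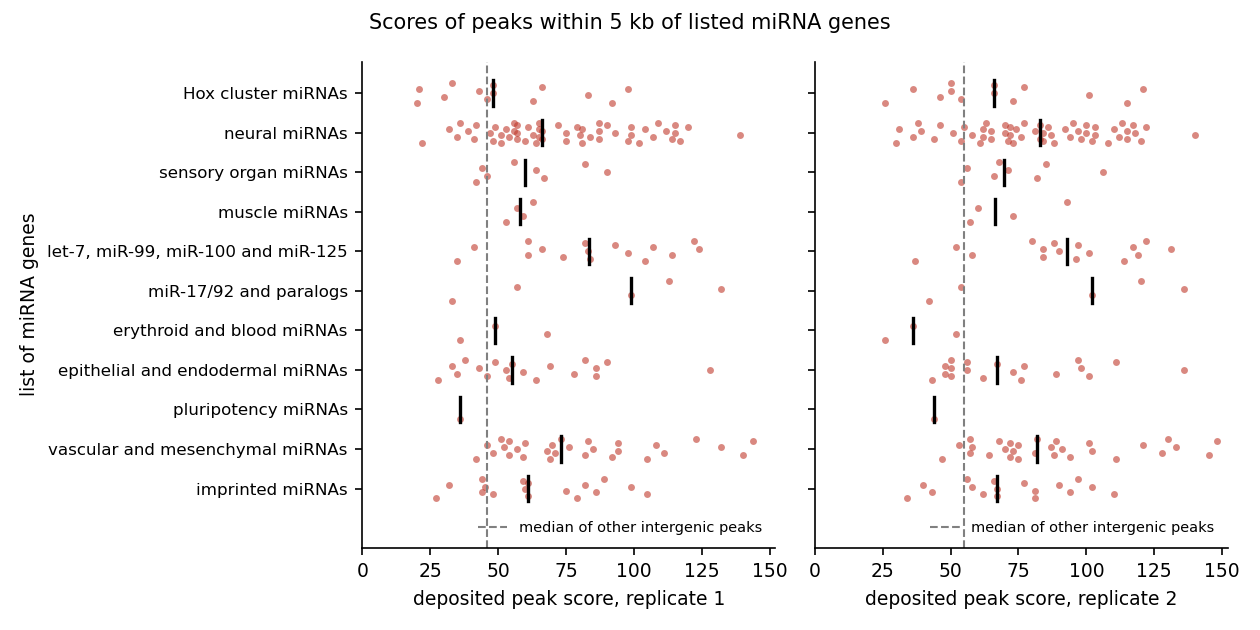
Deposited scores, without unit, of the peaks within 5 kb of the miRNA genes of each list, in replicate 1 (left) and replicate 2 (right); each point is 1 peak, the black bar is the list's median and the dashed line is the median of other intergenic peaks (46 and 55). The medians of the miR-17/92 group (99 and 102) and of let-7 with miR-99, miR-100 and miR-125 (83.5 and 93) stand highest, and the median of 3 peaks near blood miRNAs is above the dashed line in replicate 1 and below it in replicate 2.

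Neural miRNAs had the most peaks of any list, 55, with median scores of 66 and 83. All 3 loci of miR-9, which acts on neural progenitors, had peaks. Near Mir9-3 the 4 peaks scored 139, 99, 66 and 49 in replicate 1 and 140, 100, 63 and 74 in replicate 2. Near Mir9-2 the 3 peaks scored 75, 104 and 65 in replicate 1 and 87, 100 and 88 in replicate 2, and Mir9-1 had 1 peak. The best peak stood upstream at Mir9-3 and 906 bp downstream at Mir9-2 in both replicates.

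All 3 loci of miR-124, the abundant miRNA of neurons, had at least 5 peaks. The 8 peaks near Mir124a-3 scored between 54 and 117 in replicate 1 and between 81 and 115 in replicate 2. The best in replicate 1 was 144 bp downstream of the hairpin (117 and 113), and the best in replicate 2 was 864 bp downstream (114 and 115). Near Mir137, a neuronal miRNA, a peak lay over the hairpin itself (80 and 77), and the best of the locus lay 2326 bp upstream (109 and 118). Mir132 and Mir212, which share a seed and a transcript and respond to neuronal activity, shared 4 peaks of 87 to 120 in replicate 1 and 94 to 122 in replicate 2. Neural miRNA genes outside protein-coding genes with no such peak were Mir219a-1 and Mir92b, although 8 and 3 shared peaks of other positions lay within 5 kb.

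Hox clusters carry miRNAs of the miR-10 and miR-196 families, which act on Hox messages. The 2 that lie outside protein-coding genes are both in HoxB. Mir196a-1, which is nearest to Hoxb9, had 11 peaks, which scored 20 to 92 in replicate 1, and 26 to 121 in replicate 2. The best, 3453 bp upstream, scored 92 and 121. A pair of the 11 overlap each other, and both scored 48 and 66. Mir10a had a peak 4874 bp upstream (98 and 115) and another 2274 bp upstream (83 and 101). The median of the 13 peaks, 48 and 66, was near that of other intergenic peaks in replicate 1. The other 4 listed Hox miRNAs lie inside protein-coding genes by annotation and have shared peaks of other positions within 5 kb.

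The sensory organ cluster Mir183, Mir96 and Mir182, known from hair cells and photoreceptors, had 8 peaks with medians of 60 and 69.5. The best (90 and 106) lay between Mir182 and Mir96, and 5 peaks lay from 2514 to 4534 bp upstream of Mir183, all within 1378 bp of the TSS of the lncRNA Rncr4. Among muscle miRNAs, Mir1a-1 had 3 peaks, from 2617 to 3517 bp upstream, with scores of 53, 59 and 63 in replicate 1 and 57, 93 and 60 in replicate 2. The peak that scored 59 and 93 differed most between the replicates. Mir206 and Mir133b shared a peak of 57 and 73, and Mir133a-2 had none within 5 kb of any position.

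The let-7 family, which rises as cells differentiate, and the miR-125 family had 16 peaks, with medians of 83.5 and 93. Mirlet7i had a pair of strong peaks upstream, at 387 bp (124 and 122) and at 727 bp (122 and 131). Mir125b-1 had 5 peaks of 66 to 114 in replicate 1 and 80 to 119 in replicate 2, and all 5 lay in lncRNA genes. Mirlet7b with Mirlet7c-2 had 2 peaks downstream (74 and 88, 83 and 96). The cluster of Mirlet7a-1, Mirlet7d and Mirlet7f-1 and the pair Mir100 and Mirlet7a-2 had no shared peak of any position within 5 kb. Mir100 and Mirlet7a-2 lie upstream of Mir125b-1 on the same strand, outside the 5 kb around it.

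The Mir17 cluster, which drives growth of many embryonic tissues, had 5 peaks, 4 of them upstream. From the farthest to the nearest to the hairpins, the upstream peaks scored 99, 132, 113 and 57 in replicate 1 and 102, 136, 120 and 54 in replicate 2. The best, 2840 bp upstream of Mir17, was 78.0% GC, and its printed sequence holds 3 matches to the SP motif. The downstream peak was weak, at 33 and 42.

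Blood miRNAs had 3 peaks, with medians of 49 in replicate 1 and 36 in replicate 2, against 46 and 55 for other intergenic peaks. Mir144 and Mir451a, of the red cell lineage, shared 2 peaks, at 394 bp (49 and 36) and 3134 bp (36 and 26) upstream of Mir144. The peak by Mir142, a miRNA of all blood lineages, scored 68 and 52 and lay 46 bp from the TSS of Mir142hg. All 3 scored lower in replicate 2, whereas the median of all 731 peaks was higher in replicate 2. In percentiles of its own list, the median of the 3 peaks was 56.3 in replicate 1 and 24.9 in replicate 2, and among the other 10 lists the median was lower in replicate 2 for the miR-17/92 group (90.3 in replicate 1 and 89.2 in replicate 2) and imprinted miRNAs (69.3 and 69.0). This was read from 3 peaks after the values were seen. Over all 731 peaks the difference of percentiles, replicate 2 minus replicate 1, had a median of 1.72 and ran from -11.3 to 21.1 between the 5% and 95% points. Mir155, Mir146 and the pair Mir181a-1 and Mir181b-1 had no shared peak of any position within 5 kb.

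Epithelial and endodermal miRNAs had 19 peaks, with medians of 55 and 67. Mir148a had the best, 1141 bp upstream (128 and 136), and a weak peak over the hairpin (28 and 50). Mir375, a miRNA of pancreatic islets and other endocrine cells, had 5 peaks of 33 to 59 in replicate 1 and 48 to 76 in replicate 2, of which the best lay 107 bp downstream. Mir205, of surface epithelia, had 2, which included a peak 97 bp from the TSS of its host lncRNA (49 and 56). Mir200c and Mir141, which keep cells epithelial, had 2 peaks (46 and 50, 78 and 101). The liver miRNA Mir122 and the pancreatic Mir216a, Mir216b and Mir217 had no shared peak of any position within 5 kb.

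Vascular and mesenchymal miRNAs had 29 peaks, with medians of 73 and 82, and the scores of Mir210 and Mir26b above belong to them. Mir193a had a pair of peaks upstream, at 718 bp (123 and 130) and 958 bp (111 and 128). The best peak near the Mir23a, Mir27a and Mir24-2 cluster lay 4787 bp upstream (105 and 121). Mir143 and Mir145a, of smooth muscle, had 5 peaks of 57 to 108 in replicate 1 and 73 to 111 in replicate 2. Of the pluripotency miRNAs, Mir290a had a peak 875 bp upstream with low scores (36 and 44), the lone peak of that list. Mir29a, Mir29b-1, Mir365-1 and Mir365-2 had none of any position within 5 kb.

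Imprinted miRNAs had 17 peaks, with medians of 61 and 67. Mir675, in H19, had 7, which scored 60 to 105 in replicate 1, and 58 to 110 in replicate 2. Of these, 4 lay from 1108 to 3648 bp from the H19 TSS on its upstream side, and they scored 61, 99, 89 and 82 in replicate 1 and 58, 110, 90 and 97 in replicate 2. In the large maternally expressed cluster of chromosome 12 that opens with Mir379, 39 hairpins had 6 peaks, with medians of 38.5 and 53.5. The best (116 and 125) lay 2031 bp beyond the last hairpin, Mir3072, which is not in the list. This peak is not among the 17, whose highest scores were 105 in replicate 1 and 110 in replicate 2.

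**Figure D4:**
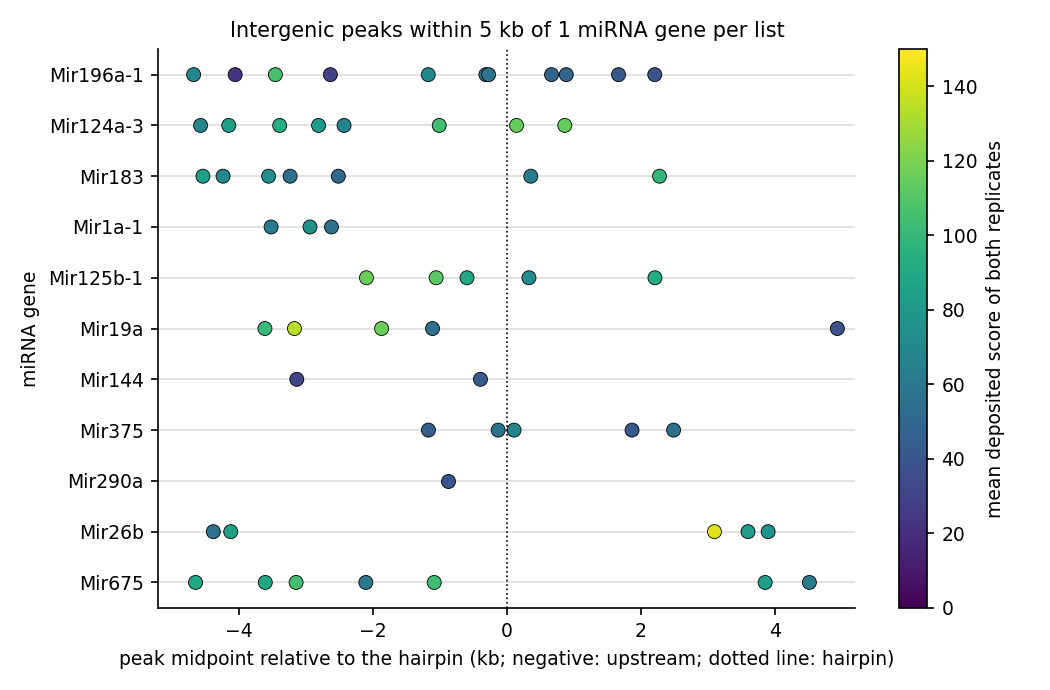
Midpoints of the intergenic peaks within 5 kb of 11 miRNA genes (rows), those with the most peaks in each list, by distance in kb from the hairpin (horizontal axis; negative values are upstream on the strand of the miRNA, the dotted line is the hairpin), coloured by the mean deposited score of both replicates. Mir196a-1 has 11 peaks and Mir124a-3 has 8 on both sides of the hairpin, the 3 peaks of Mir1a-1 and the single peak of Mir290a are upstream, and Mir26b has its best peak downstream.

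The miRNA genes with the most peaks included some with no RefSeq entry. Gm23366, which has no RefSeq miRNA entry, had 12 peaks with medians of 56.5 and 66.5. Its neighbour is Foxd3, a transcription factor of the neural crest, and all 12 peaks had Foxd3 as the nearest protein-coding TSS. Mir1897 had 10 peaks, all inside the lncRNA Sox2ot and with Sox2, a factor of neural progenitors, as the nearest TSS. They scored 27 to 97 in replicate 1, and 37 to 104 in replicate 2. Mir3089 had 11 peaks with medians of 96 and 104, 70893 bp or more from the nearest protein-coding TSS. Of these, 6 lay in a lncRNA. Mir196a-1 and n-TStga1, a GENCODE miRNA gene that lies on a tRNA gene, also had 11 each.

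Hairpins made up a small part of the space, 75.6 kb of the 7539 kb of eligible sequence within 5 kb of a miRNA gene. A peak overlapped a hairpin by any number of bases in 37 of 731 cases (5.06%, 3.69 to 6.90), 21 of them at RefSeq miRNA genes. Of these, 13 had their midpoint inside it, or 17.2 per 100 kb of hairpin, against 9.70 over all of that eligible sequence. The 37 peaks had median scores of 48 and 54, against 56 and 66 for the 694 peaks that touched none. The best 5 were at Gm24158 (128 and 138), Mir1983 (128 and 123), Mir212 (120 and 122), Gm25306 (110 and 118) and Mir8120 (101 and 112).

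Other annotation at the peaks differed from that of intergenic peaks in general. A protein-coding TSS lay within 5 kb of 183 peaks (25%, 22.0 to 28.3), against 9.06% of other intergenic peaks, and the median distance to it was 18367 bp, against 52468 bp. A tRNA gene lay within 1 kb of 24 peaks (3.28%), against 0.735%. A set of 4 GENCODE miRNA genes lie on a tRNA gene, and 19 peaks were nearest to them. Of those, 11 were near n-TStga1, with scores of 60 to 94 in replicate 1 and 78 to 102 in replicate 2. The nearest protein-coding TSS was that of a histone gene for 37 peaks (5.06%, 3.69 to 6.90), against 51 of 65444 other intergenic peaks (0.0779%). All 37 were near GENCODE miRNA genes with no RefSeq entry, and the TSSs include Hist1h4h on chromosome 13, the chromosome with the most of the 731 peaks, 83. Hist1h4h was the nearest for the best peak near n-TStga1 (88 and 102), so the tRNA and histone groups overlap.

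The sequence of the peaks was richer in G and C than that of other intergenic peaks. Median GC content was 53.3% (quartiles 48.0 and 59.3), against 51.3% (46.7 and 55.3), with 55.3% near RefSeq miRNA genes and 50.7% near other GENCODE miRNA genes. The ratio of observed to expected CpG, the dinucleotide that is methylated in mammals, had a median of 0.333, against 0.256. A ratio over 0.6 with GC content over 50% was found in 16.6% of peaks (14.0 to 19.4), against 6.99% (6.79 to 7.19). The share was 22.8% near RefSeq miRNA genes and 9.41% near other GENCODE miRNA genes. Repeats made up more than 50% of the sequence in 4.92% of peaks, against 4.33%.

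Of 19 consensus motifs searched on both strands, GGGCGG of SP factors differed most in percentage points. It was present in 15.2% of peaks (12.8 to 18), in 18.9% of those near RefSeq miRNA genes, and in 8.13% of other intergenic peaks (7.92 to 8.34). The peaks that held it had a median GC content of 61.3%. The E-box CAGCTG was present in 13% (10.8 to 15.6), against 18.2% (17.9 to 18.5). The intervals met for GGAATG of TEAD factors (8.76%, 6.92 to 11.0, against 11.2%, 10.9 to 11.4), for the SOX motif ACAANG (30.4%, against 30.6%), for TFAP2 (8.21%, against 6.46%, intervals 6.43 to 10.4 and 6.27 to 6.65) and for the CTCF motif, known for chromatin loops (9.85%, against 9.31%). Matches of different motifs can overlap, most often AP-1 (TGANTCA) with HOX-PBX (TGATTNAT), in 7 peaks. A match describes letters and not binding, and the part of base composition in these shares was not tested.

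Hotspots, the wider regions of enriched cutting deposited beside the peaks, were broader at these peaks, mainly near RefSeq miRNA genes. The median width of the hotspot under a peak was 325 bp in replicate 1 and 390 bp in replicate 2, against 271 and 310 bp under other intergenic peaks. It was 370 and 480 bp near RefSeq miRNA genes, and 280 and 340 bp near other GENCODE miRNA genes. The deposited −log10 q value was at its ceiling of 100 for 51.2% (47.5 to 54.8) and 60.6% (57.0 to 64.1) of the peaks, against 40.3% and 48.0% of other intergenic peaks. These shares were 54.7% and 65.0% near RefSeq miRNA genes, and 47.1% and 55.6% near other GENCODE miRNA genes.

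Peaks next to the limits of the rule are given as examples, and 3 on each side are too few to show or exclude a step. The 3 peaks just inside 5 kb, at 4986, 4991 and 4996 bp from the hairpin, scored 60, 36 and 38 in replicate 1 and 57, 46 and 40 in replicate 2. The 3 just outside, at 5027, 5041 and 5044 bp, scored 55, 45 and 46 in replicate 1 and 64, 61 and 63 in replicate 2. The 127 peaks from 4 to 5 kb had medians of 57 in replicate 1 and 65 in replicate 2, against 53 and 61 for the 138 from 5 to 6 kb. At the limit of 1 kb from a protein-coding TSS, peaks at 1009, 1012 and 1014 bp scored 29, 57 and 100 in replicate 1, and those left out at 988, 990 and 997 bp scored 31, 55 and 56.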

How the data were processed

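DNase-seq peaks and hotspots of 2 replicates were used as the authors deposited them, called per replicate and not pooled, on mm10 per the accompanying text and labels. Deposited peaks are 150 bp wide and carry a score from 1 to 150. How the authors made the score is not stated and its zero point is unknown, so no ratios were taken. Deposited hotspots carry a −log10 q value with a ceiling of 100, per their file format. Not given in the sources used here are the aligner, the caller and the read counts, so the depth of each sample is unknown.

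Peaks were joined to GENCODE M21 and to RefSeq GRCm38.p6 with Python 3.11.15, pandas 2.3.3, numpy 2.4.6, scipy 1.17.1 and matplotlib 3.10.9. All 919 RefSeq hairpins compared with the genome were identical to it. Distance runs from the peak midpoint to the nearest base of the hairpin. Upstream is on the strand of the nearest miRNA gene. Eligible sequence is the assembled sequence outside protein-coding genes and more than 1 kb from their TSSs. Repeats are the lower-case bases of the reference. The interval code was tested on simulated data. Alternatives changed the distance, the overlap, the TSS limit, the replicate, the score and the symbols used.

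Members and the 11 lists were chosen with earlier results of these data known. The lists hold 192 miRNA genes, of which 189 were found on chromosomes 1 to 19. The RefSeq split and the tRNA, snRNA, snoRNA and histone comparisons were chosen after seeing the values. Named are the 10 best-scoring peaks, the clusters with the most peaks, the gene with the most peaks of each list, the 5 best peaks over hairpins, and further list members chosen after their values were seen.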

Additional observations from a re-analysis of the deposited data

How the results depend on the processing

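The alternatives covered 7 results: the numbers of peaks and of miRNA genes, the shares upstream, within 1 kb and in a lncRNA gene, and the median score and GC content. The median score and the median GC content stayed above those of other intergenic peaks under every alternative. No alternative took the 340 peaks near other GENCODE miRNA genes alone. Their median GC content was 50.7%, below the 51.3% of other intergenic peaks. The counts and shares were not set against other intergenic peaks under the alternatives, so they had no direction that could change. Densities, list counts, motif shares and hotspot values were not recomputed under the alternatives. Within 2 kb of the miRNA gene there were 341 peaks near 210 genes, 56.3% of them within 1 kb of the hairpin, with a median GC content of 54.0%. Within 10 kb there were 1378 peaks near 590 genes, 13.9% of them within 1 kb. Over 5 kb from every protein-coding TSS, 28.5% lay in a lncRNA gene. With replicate 2 peaks as members the median score was 66, against 55.0 for other intergenic peaks of that replicate. With the better-scoring 50% of each list there were 467 peaks, 57.0% upstream, 28.7% in a lncRNA gene, with a median GC content of 55.3% and a median score of 71.0, against 66 for other intergenic peaks. With symbols that start with Mir there were 400 peaks near 188 genes, 33.5% in a lncRNA gene, with a median GC content of 55.3%. Without replicate 1 or without replicate 2, when all intergenic peaks of the remaining list near a miRNA gene count, there were 891 to 1011 peaks near 414 to 436 genes, 51.3% to 52.3% upstream, 24.9% to 25.6% within 1 kb and 24.7% to 25.8% in a lncRNA gene. Their median scores were 49.0 to 55.0, against 40 to 46.0 for other intergenic peaks, and their median GC content was 52.7% either way. An overlap of at least 75 bp and leaving out repeat-rich peaks moved no value beyond its interval or 1.5 times a count. Each replicate alone leaves a single list with no check of presence in the other. The limits are 2 libraries of 1 group, unknown depth, a score of unknown construction, and peaks of 1 cluster that are not independent. No paired analysis was possible because there is only 1 group.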
